A study of Mus musculus with 4 samples.

Results

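The AP-1 and BATF family genes encode basic leucine zipper (bZIP) transcription factors. Their occupancy by Trim33, a chromatin-associated ubiquitin ligase that works with SMAD proteins, was described in T helper 17 (Th17) cells. The 10 genes were Fos, Fosb, Fosl1, Fosl2, Jun, Junb, Jund, Batf, Batf3 and Atf3. Their peaks were chosen by position alone, as the peaks whose summit lay in the RefSeq body of a gene or within 10 kb of it (its locus). This gave 34 of the 27050 deposited peaks, each in the locus of 1 member.

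The series held 4 libraries, 2 of Trim33 chromatin immunoprecipitation (ChIP) and 2 of input DNA without antibody. All came from C57BL/6 naive CD4+ T cells of spleen and lymph nodes, turned into Th17 cells in culture on plate-bound antibodies to CD3 and CD28. The medium held IL-6, TGF-b and antibodies to IL-4 and IFN-g. No genotype other than the strain, culture time, age or number of animals was given in the sources used here. The peaks were called on the merged replicates, so each value below is a single value with no error between cultures, no library has a value of its own, and no test between samples could be made. Depth per library is unknown here. A peak list does not measure expression, so the cell type was not checked by it. As loci, the Th17 and T cell genes Il17a, Il17f, Il23r, Ccr6, Cd3e, Cd4 and Cd28 each held a summit and the B cell and myeloid genes Cd79b, Ms4a1 and Csf1r held none. Over all protein-coding genes 46.1% held none, among them the T cell cytokine genes Il22, Ifng and Csf2.

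AP-1 is a dimer of bZIP proteins. JUN proteins pair with each other or with FOS proteins, which cannot pair among themselves, and the dimers bind DNA at AP-1 and cAMP response elements after signals such as T cell receptor stimulation. BATF proteins lack a transactivation domain of their own, pair with JUN proteins and bind together with IRF4 or IRF8. In Th17 cells BATF is required for differentiation, JUNB is a partner of BATF needed by pathogenic Th17 cells, and FOSL2 has been described as a factor that restrains plasticity.

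The member promoters with a summit are shown beside that of Fos, the member with no summit in its locus. Summits lay inside the RefSeq promoter window (250 bases before to 50 after the gene start) of 4 of the 9 members with an annotated start. These were Jun, Junb, Atf3 and Batf3. Over all promoters, 5402 of 32817 had a summit in this window, a count per promoter and not per gene. Counted per gene, a summit within 500 bp of a start was found at 4 of 10 members, against 32.1% of protein-coding genes. The promoters of Fos, Fosb, Fosl2, Jund and Batf had none, though Fosl2, Jund and Batf held peaks of 10-fold or more elsewhere in their loci. Jund has 2 RefSeq transcripts and Fosb 3, but each was judged at its 1 annotated start. The 250 bases before the start of Jun, Junb, Atf3, Batf3 and Fos are printed 5′ to 3′ on the coding strand (RefSeq, GRCm38.p6, the assembly called mm10). Capitals mark the bases that lie inside a deposited Trim33 peak. The ranges are chr4:95052223-95052472 on the minus strand for Jun, chr8:84978749-84978998 on the minus strand for Junb, chr1:191183334-191183583 on the minus strand for Atf3, chr1:191098164-191098413 on the plus strand for Batf3 and chr12:85473640-85473889 on the plus strand for Fos.
Jun: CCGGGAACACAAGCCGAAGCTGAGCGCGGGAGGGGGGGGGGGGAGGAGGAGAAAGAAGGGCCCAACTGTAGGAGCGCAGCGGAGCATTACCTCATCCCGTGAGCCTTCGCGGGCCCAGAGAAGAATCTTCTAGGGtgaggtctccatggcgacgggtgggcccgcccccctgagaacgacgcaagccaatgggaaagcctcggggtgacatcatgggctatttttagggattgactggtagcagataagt
Junb: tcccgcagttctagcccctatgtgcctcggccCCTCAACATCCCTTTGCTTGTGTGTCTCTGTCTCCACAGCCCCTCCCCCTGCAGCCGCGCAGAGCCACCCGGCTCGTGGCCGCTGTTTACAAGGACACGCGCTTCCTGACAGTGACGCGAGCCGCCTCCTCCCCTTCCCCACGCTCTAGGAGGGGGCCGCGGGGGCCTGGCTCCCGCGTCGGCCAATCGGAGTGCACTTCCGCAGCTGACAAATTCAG
Atf3: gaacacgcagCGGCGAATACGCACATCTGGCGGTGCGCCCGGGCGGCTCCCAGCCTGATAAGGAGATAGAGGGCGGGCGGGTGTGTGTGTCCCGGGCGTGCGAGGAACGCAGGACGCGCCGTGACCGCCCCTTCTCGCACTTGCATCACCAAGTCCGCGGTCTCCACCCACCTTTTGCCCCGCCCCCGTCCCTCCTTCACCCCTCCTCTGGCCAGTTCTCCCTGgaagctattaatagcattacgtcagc
Batf3: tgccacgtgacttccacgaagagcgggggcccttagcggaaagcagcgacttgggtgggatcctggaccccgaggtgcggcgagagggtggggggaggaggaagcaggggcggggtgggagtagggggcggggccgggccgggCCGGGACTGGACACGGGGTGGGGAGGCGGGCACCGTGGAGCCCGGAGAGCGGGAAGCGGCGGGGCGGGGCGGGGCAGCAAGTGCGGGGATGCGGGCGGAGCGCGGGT
Fos: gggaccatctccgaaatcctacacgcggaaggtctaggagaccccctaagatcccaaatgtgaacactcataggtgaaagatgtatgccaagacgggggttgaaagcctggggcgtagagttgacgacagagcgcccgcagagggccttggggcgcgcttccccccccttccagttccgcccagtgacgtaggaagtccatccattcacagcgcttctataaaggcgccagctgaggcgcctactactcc

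The peak bases numbered 135 in Jun, 218 in Junb, 214 in Atf3 and 107 in Batf3. In Jun they made up the distal part of the stretch, in Junb and Batf3 the proximal part, and the peaks of both ran on past the start into the gene. The Junb summit lay 11 bp inside the gene, so it is not in the printed bases. The other 3 summits lay 235 bp (Jun), 131 bp (Atf3) and 20 bp (Batf3) upstream of the start.

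Of the 10 members, 9 had a summit in their locus, against 53.9% of 21887 protein-coding genes. Fos was the member with none. A summit within 1000 bp of the gene start was found at 4 of 10 members, against 34.3% of protein-coding genes, a share near the background. Among the genes with an annotated start this was 4 of 9 members against 34.8%. Locus summits numbered 4 or more in 5 of 10 members, against 8.96% of protein-coding genes. A peak of 10-fold or more was found in 4 of 10 loci (Fosl2, Jund, Batf and Junb), against 10.1% of protein-coding genes. The members' loci were shorter than usual, with a median of 27.8 kb against 37.2 kb.

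Summits were dense in these loci. The 34 summits lay in 294.259 kb, which is 116 per Mb, against 16.0 per Mb in the union of all protein-coding loci. Without Junb the other 25 summits gave 91.8 per Mb, and counting a summit only for its nearest protein-coding gene gave 95.2 per Mb. The members' loci were shorter than usual, so flanks next to gene ends made up more of them. What part this has in the density was not tested. The median member locus held 3.5 summits, against 1 over all protein-coding genes. The height of the peaks was close to that of the list, with a median fold enrichment of 5.90 (quartiles 4.88 and 8.26) against 6.00 (quartiles 4.87 and 7.76) over all peaks. Of the 34, 5 reached 10-fold (14.7%, exact Clopper-Pearson 95% interval 4.95% to 31.1%, counting error only), against 11.1% of all peaks. The interval takes the summits as independent, though they cluster in 9 loci and 2 of the 5 lay at Jund. The highest member peak reached 12.2-fold and ranked 1390 of 27050, and the highest of the list reached 54.6-fold.

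**Figure D1:**
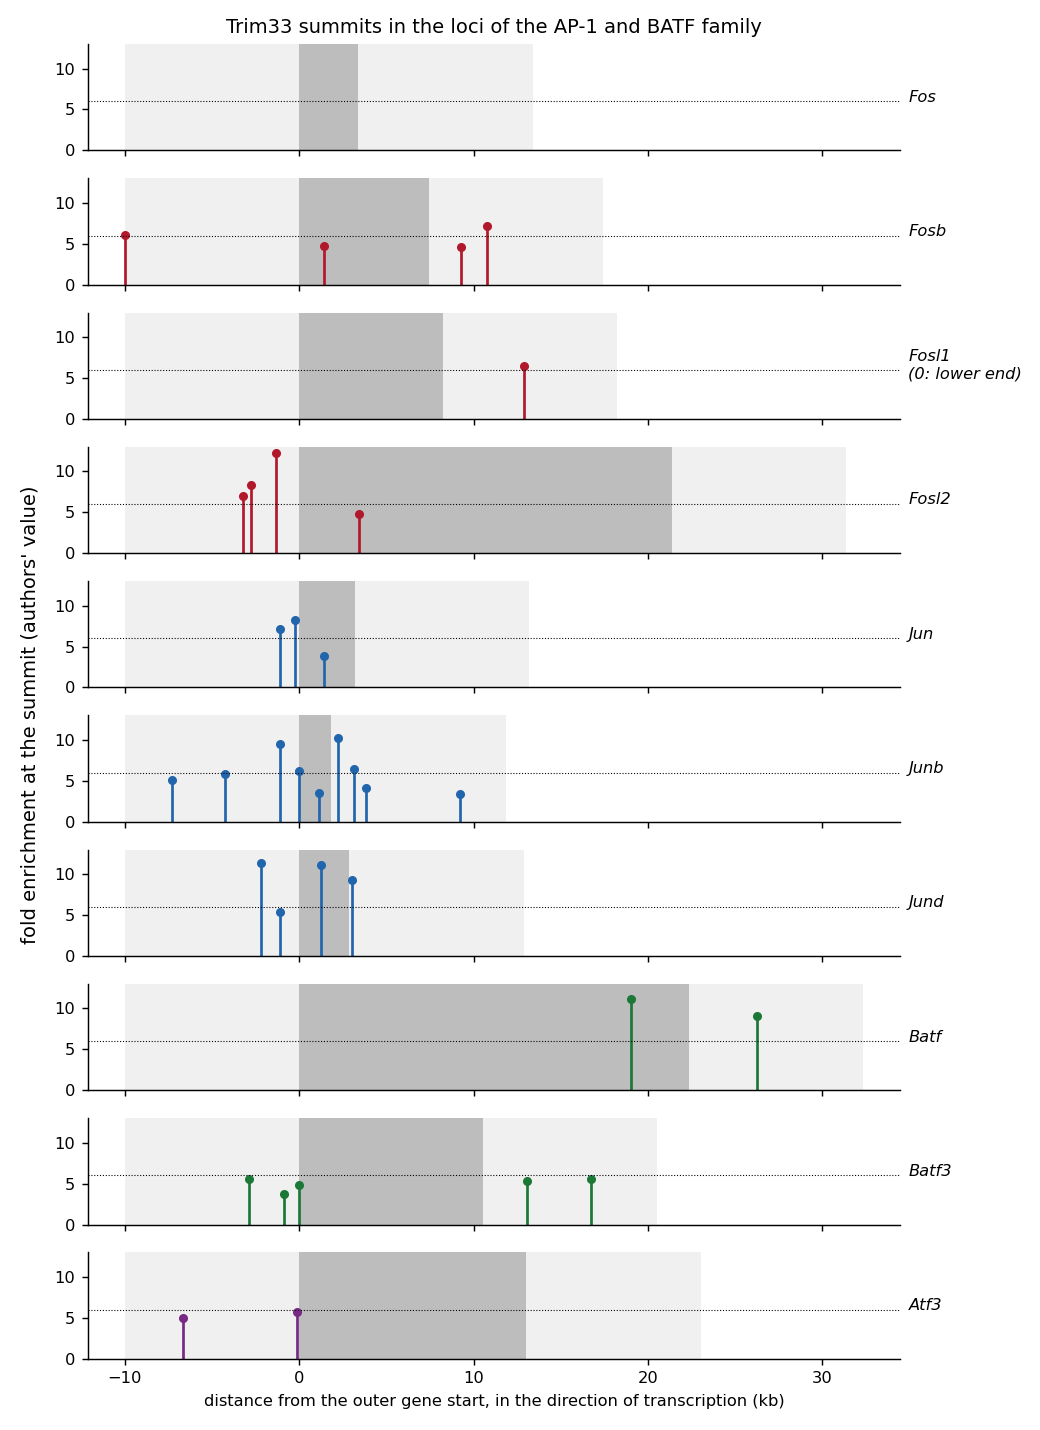
Trim33 summits in the 10 loci. Each stem is a summit, its height the authors' fold enrichment and its place the distance in kb from the outer gene start in the direction of transcription (for Fosl1 from its lower end); dark grey is the gene body, light grey the 10 kb on each side, and the dotted line the median of all peaks (6.00). Fos is empty, Junb holds 9 summits, and the 2 summits of Batf lie far from its start.

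Of the 3 JUN genes, whose products are common partners of FOS and BATF proteins, Junb stood out in number and Jund in height. Together they held 16 of the 34 summits, against 9 for the 4 FOS genes. Junb is a short gene without introns at chr8:84976909-84978748 on the minus strand, and its locus of 21.8 kb held 9 summits. In number this was reached by 1 of 10 members and 0.982% of protein-coding genes, and in summits per kb Junb ranked 3 of 21887, after Sfi1 and Crlf2 and before Cish and Tnf.

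The highest Junb peak, 10.2-fold at chr8:84976099-84976747, lay 358 bp past the 3′ end of the gene. The next, 9.44-fold at chr8:84979587-84980365, lay 1089 bp upstream of the start. Both were higher than the 6.22-fold peak at the start itself and the 3.53-fold peak 1108 bp into the gene, so the gene was flanked by its strongest occupancy. Farther upstream were peaks of 5.80-fold at 4243 bp and of 5.09-fold at 7304 bp, the latter 1037 bp wide. On the 3′ side lay peaks of 6.42, 4.16 and 3.43-fold. These 3 and the one at 7304 bp, 4 of the 9, were nearer to another gene (Prdx2, Rnaseh2a or Hook2) than to Junb.

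Jund, the JUN gene known for broad and steady expression, spans chr8:70697739-70700616 on the plus strand and had 4 summits. An 11.4-fold peak lay 2206 bp upstream of its start and ranked 1816 of 27050. A peak of 11.2-fold, 734 bp wide, lay 1262 bp inside the gene at chr8:70698712-70699445. The other summits were 9.25-fold at 176 bp past the 3′ end, which was 529 bp from Iqcn, and 5.34-fold at 1117 bp upstream. RefSeq lists 2 transcripts of Jund but gives 1 promoter start. Distances, and the lack of a summit in the promoter window or within 1000 bp, refer to that start. With a median of 10.2-fold, 3 of the 4 Jund peaks lay above the upper quartile of the list.

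Jun, the founding member of AP-1 (chr4:95049036-95052222, minus strand), had 3 summits. The promoter peak printed above had 8.19-fold enrichment and was 616 bp wide. A second peak, 7.11-fold, lay 1087 bp upstream. Both upstream summits also lay inside the divergent lncRNA gene Junos. The peak inside Jun, at 1434 bp, was low, 3.84-fold. Thus Jun was occupied mainly upstream, Junb on both flanks and Jund upstream, inside and past the end.

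**Figure D2:**
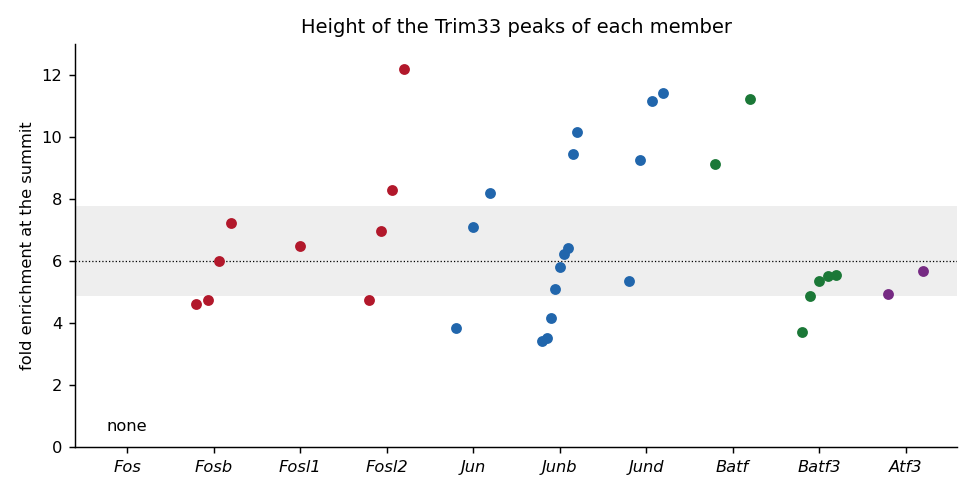
Fold enrichment (authors' value, vertical axis) of each peak in the locus of each member, in red for FOS, blue for JUN, green for BATF genes and purple for Atf3. The grey band spans the quartiles of all 27050 peaks (4.87 to 7.76) and the dotted line is their median. The 10 peaks above the band belong to Batf, Jund, Fosl2, Junb and Jun. They include each peak of Batf and 3 of the 4 Jund peaks, while no peak of Batf3 or Atf3 reaches the median.

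The 4 FOS genes ranged from none to the highest peak of the family. Fosl2 (chr5:32136472-32157840, plus strand), which encodes FRA-2, had 3 summits in a row upstream of its start. They were 6.96-fold at 3217 bp, 8.29-fold at 2760 bp and 12.2-fold at 1347 bp. The last of them, at chr5:32134882-32136014, was the highest member peak, ranked 1390 of all peaks and was 1133 bp wide. Peaks of 1000 bp or more made up 0.185% of the list and 2 of the 34 member peaks, here and upstream of Junb. Inside Fosl2 a single summit of 4.74-fold lay 3409 bp from the start, and the rest of the gene beyond it held none.

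Fosb (chr7:19302696-19310118, minus strand), an early response gene like Fos, had 4 summits of 4.60 to 7.22-fold. One lay inside the gene, 4.75-fold at 1324 bp from the start. The highest lay on the 3′ side, inside the lncRNA gene Gm26802 and slightly nearer to Rtn2 (3210 bp) than to Fosb (3322 bp). The fourth, 6.00-fold, was 9989 bp outside the gene and thus just within the locus. The next summit of Fosb, just beyond the limit at 11535 bp, had 8.27-fold enrichment. Fosl1 (chr19:5447698-5455938), which encodes FRA-1, had 1 summit, 6.49-fold at 4646 bp above its upper end. That summit lay 14 bp from the neighbouring gene Fibp, so Fosl1 had none when each summit was counted for its nearest gene.

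Fos (chr12:85473890-85477274, plus strand), the classic immediate early gene, had no summit in its locus of 23.4 kb. The nearest was a 7.10-fold peak 18565 bp upstream of it, and an 11.8-fold peak lay 26581 bp upstream. On the other side the first summit was 42514 bp away, at 5.97-fold. With 50 kb on each side Fos had 5 summits, against 4 for Batf and 16 for Junb. A peak list holds only regions that passed the authors' calling, so no summit here does not mean no Trim33 signal.

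Batf, the Th17 factor of the BATF genes, lies on the same chromosome, 209 kb from Fos (chr12:85686720-85709087, plus strand). Its 2 peaks were high and both lay far from its start. The first, 11.2-fold at chr12:85705259-85705871, was inside the gene, 19010 bp from the start and 3357 bp before its 3′ end, and ranked 1935. The second, 9.12-fold, lay 3874 bp past the 3′ end. No summit lay upstream of Batf in its locus, and the nearest on that side was 61786 bp away, inside Jdp2. Jdp2, a bZIP gene between Fos and Batf whose product represses AP-1, had 5 summits in its locus up to 7.83-fold. In the whole interval between Fos and Batf there were 8 summits, none above that height.

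**Figure D3:**
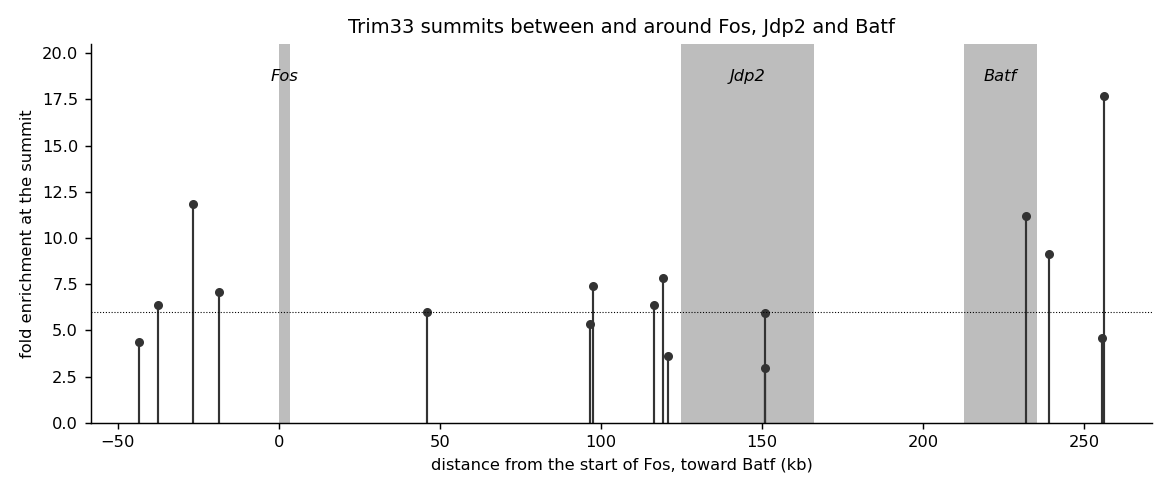
Trim33 summits around Fos, Jdp2 and Batf. The horizontal axis is the distance in kb from the start of Fos toward Batf, the vertical axis the authors' fold enrichment, and grey bars are gene bodies. Peaks stand at 11.8-fold before Fos, at 11.2-fold and 9.12-fold at Batf and at 17.7-fold past Batf, while those between the genes reach 7.83-fold.

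Batf3, known as the factor for cross-presenting dendritic cells, showed the reverse of Batf. It had 5 summits (chr1:191098414-191108943, plus strand), all below the median of the list, from 3.71 to 5.54-fold, and none inside the gene. Of these, 3 lay upstream, at 20, 892 and 2868 bp from the start, and 2 past the 3′ end, at 2520 and 6211 bp. The peak at the start had 4.86-fold enrichment, just below the lower quartile of the list. Batf3 thus had 5 peaks below the median of the list and Batf 2 above its upper quartile. This holds for the 10 kb limit only, since with 25 kb on each side Batf3 reached 14.4-fold and Batf 17.7-fold.

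Atf3 (chr1:191170296-191183333, minus strand), a stress-induced ATF gene on the same chromosome as Batf3, had 2 summits. The promoter peak had 5.67-fold enrichment and the other, 6662 bp upstream of the gene, 4.95-fold. Both were below the median of the list. Its body of 13038 bp held none.

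By position, the 9 members with a known strand had 33 summits. Upstream flanks held 16 (48.5%), gene bodies 7 (21.2%) and downstream flanks 10 (30.3%). Over the 17492 protein-coding genes with a known strand the shares were 27.8%, 54.6% and 17.6%. Member bodies were shorter, with a median of 7.42 kb against 16.9 kb. In total they came to 86.0 kb over the 9 members, against 818450 kb over the 17492 genes, each with flanks of 10 kb. The shares pool all genes, so long genes weigh more in them than the medians show. Shorter bodies leave less room for summits inside, and what part this has in the shares was not tested. Within 2500 bp of a start, 7 of 10 members had a summit, against 37.3% of protein-coding genes. The 3 gained over the 1000 bp window were Fosb, Fosl2 and Jund, whose nearest summits lay 1324, 1347 and 1117 bp from the start.

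**Figure D4:**
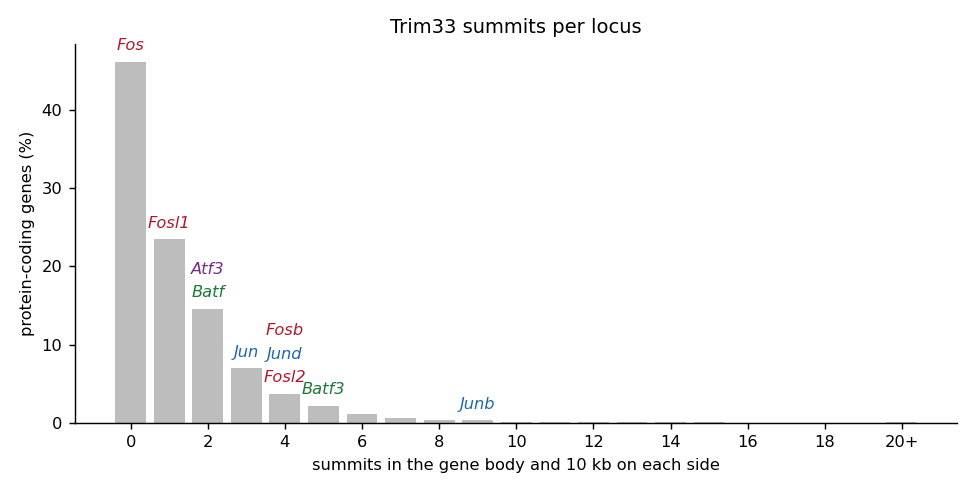
Share of the 21887 protein-coding genes (vertical axis, %) by the number of Trim33 summits in the gene body and 10 kb on each side (horizontal axis, with 20 or more in 1 bar). Names mark the number of each member; Junb stands at 9, where 0.982% of genes have as many or more, and Fos among the 46.1% with none.

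The promoters were also searched for motifs on both strands of the 250 bases before the start, in 9 members and in 32817 promoters of the table. Neither the AP-1 motif TGANTCA nor the full cAMP response element TGACGTCA was found in any of the 9, against 6.75% and 1.55% of all promoters. The SMAD motif CAGAC was in none of the 9 but in 42.2% of all promoters. The SMAD palindrome GTCTAGAC was also in none, against 0.168% of all promoters. Composite AP-1 and IRF motifs and serum response elements, searched in 2 spellings each, were in none of the 9 and in at most 0.101% of promoters. Only these exact spellings were counted, so near variants, such as TGACATCA in the Jun promoter printed above, were not. These letters may lie elsewhere in the loci, since the windows are short and the peaks outside them were not searched.

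A shorter motif, TGACG, which is part of the full cAMP response element, was chosen after the values were seen. It was in 5 of the 9 promoters (Fos, Fosb, Junb, Batf and Atf3), against 17.7% of all promoters. In Fos it began 129 and 66 bases before the start, in Junb 106, in Batf 98, in Fosb 60 and in Atf3, on the other strand, 7. In Junb this motif lay inside the deposited peak, in Atf3 outside it, and in Fos, Fosb and Batf no peak covered the window. It was in 32.5% of promoters with a summit in the window and in 14.8% of those without. For the full element TGACGTCA these shares were 3.72% and 1.12%, for the AP-1 motif TGANTCA 4.68% and 7.16%, for CAGAC 38.8% and 42.9%, and for GTCTAGAC 0.204% and 0.160%. Their median content of G and C was 63.6% and 50.4%, and its part in these shares was not tested.

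Other genes of the pathway were described from lists chosen with earlier results known, so their counts are read only beside the background of 53.9% with a locus summit. Of 27 other bZIP genes, 22 had a summit. The highest peaks were at Crem (19.0-fold), an inducible member of the CREB family, at the AP-1 competitor Bach2 (17.8-fold) and at Creb5 (17.1-fold), and Batf2, Xbp1, Cebpa, Nfe2 and Mafk had none. Crem, Bach2 and Creb5 had long loci of 91.4, 368 and 433 kb, while the median of this list was 32.5 kb, against 37.2 kb over all protein-coding genes. The 3 BATF partner genes all had one, up to 6.95-fold at Irf4, 4.02-fold at Irf8 and 9.59-fold at Ets1. Of 22 genes for kinases, upstream factors and protein turnover, 20 had a summit, all but Itch and Elk1. Their loci were longer than usual, with a median of 78.5 kb, and what part length has in these counts was not tested. The highest were 14.0-fold at Mapk8, which encodes the JUN kinase JNK1, 12.6-fold at Cops5, whose product binds JUN, and 12.2-fold at Fbxw7, which marks JUN for degradation. Of 16 target genes in T cells, 13 had a summit, the highest at Il17f (16.0-fold), Il2 (14.2-fold) and Il17a (12.4-fold), and Il22, Ifng and Csf2 had none.

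Other groups of activation factors had similar counts. All 5 NF-kB subunit genes and 9 of the 11 NFAT, Egr and Nr4a genes had a locus summit. Summit density there was 69.7 and 67.7 per Mb, against 116 in the AP-1 and BATF loci, and their loci were longer (medians 43.2 and 40.9 kb against 27.8 kb). A summit within 1000 bp of the start was at 5 of 5 NF-kB, 8 of 11 NFAT, Egr and Nr4a and 4 of 10 AP-1 and BATF genes, against 34.3% of protein-coding genes, to which the last of these counts is near. These differences were not tested. Median folds were 4.99 and 6.36 against 5.90.

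**Figure D5:**
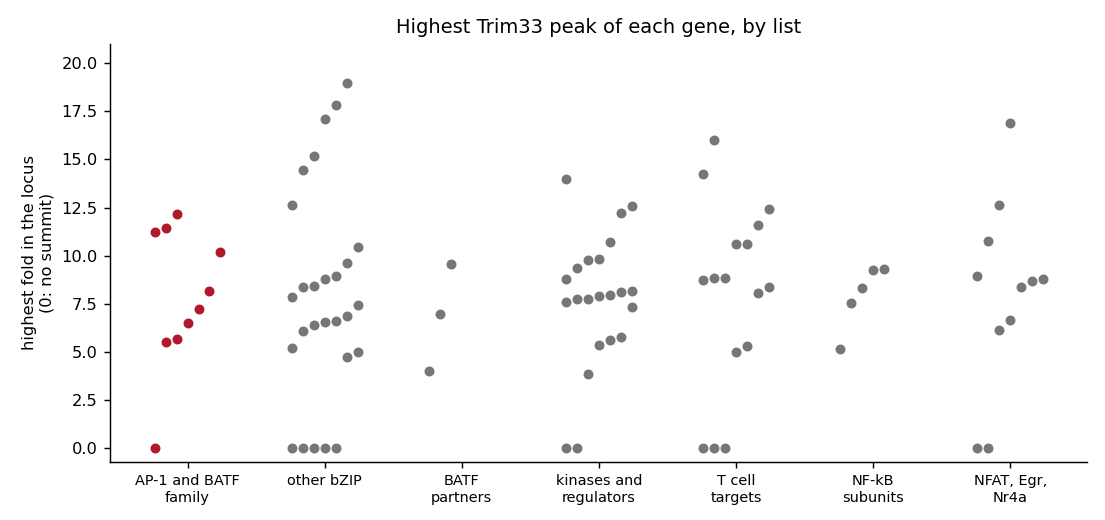
Highest fold enrichment in the locus of each gene (vertical axis, 0 where the locus has no summit), by list. The AP-1 and BATF genes, in red, reach 12.2-fold. The other bZIP genes reach 19.0-fold, the kinases and regulators 14.0-fold, the T cell targets 16.0-fold and the NFAT, Egr and Nr4a genes 16.9-fold. In this order the lists hold 34, 107, 69, 44 and 48 summits, so these maxima are taken over unlike numbers of peaks. The median folds are 5.90, 5.79, 5.98, 6.89 and 6.36.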

How the data were processed

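The authors called peaks on both Trim33 ChIP replicates merged, as the names in the file say. The submitters' processing notes name MACS2 (version 2.1.1.20160309), Bowtie (1.2.1.1), Trim Galore (0.3.7) and the mm10 build. Settings, the calling threshold and the control are not given in the sources used for this work. The deposited fold enrichment is a ratio of the signal at the summit to the caller's background. A −log10 q-value per peak, also deposited, served to rank peaks, and the deposited score was not used.

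Summits and RefSeq genes (GRCm38.p6) were joined in Python 3.11.15 with pandas 2.3.3, with coordinates counted from 1. Gene starts came from the RefSeq promoter table (17492 protein-coding genes; for the others, Fosl1 included, either end served). The members and lists were chosen with earlier results of these data known. The named genes were all members, up to 3 genes per list with the highest fold, at most 2 with no summit (more where a count of 5 or fewer was spelled out after the values were seen) and genes nearest to member summits. The locus count was checked on planted summits. Alternatives changed the locus, the window, the peak set and the way a summit is assigned.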

Additional observations from a re-analysis of the deposited data

How the results depend on the processing

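The number of members with a locus summit (9) kept within 1.5 times under 8 of 9 alternatives, from 6 (gene body alone) to 10 (25 kb or 50 kb on each side); it was 4 with peaks of 10-fold or more. The number of summits (34) was 7 in bodies alone, 53 with 25 kb, 81 with 50 kb, 17 with peaks at or above the median fold or the median −log10 q, and 5 with peaks of 10-fold or more. The median fold (5.90) was 4.75 in bodies alone, 8.29 in both upper sets and 11.2 in the 10-fold set, by construction of those sets. The share of protein-coding genes with a locus summit (53.9%) was 33.0% in bodies alone, 49.1% with 5 kb, 63.2% with 25 kb, 71.5% with 50 kb, 35.8% in the upper sets by fold and by −log10 q (35.7701% and 35.8112%), 10.1% in the 10-fold set, 43.9% by nearest gene and 60.8% when genes named Olfr, Vmn, Gm or Rik were left out. Members with a gene-start summit (4) were 7 with 2500 bp and 2 in either upper set, and the share of genes (34.3%) was 32.1% with 500 bp, 37.3% with 2500 bp, 17.7% and 18.1% in the upper sets and 39.3% without those symbols. Genes in the promoter table alone, an alternative chosen after seeing the data, gave 4 and 34.8%. In bodies alone the highest fold was 4.75 for Fosb, 4.74 for Fosl2, 3.84 for Jun, 6.22 for Junb and 11.2 for Jund, with no value for Fosl1, Batf3 and Atf3. With 25 kb it was 8.27 for Fosb, 7.39 for Fosl1, 17.7 for Batf, 14.4 for Batf3 and 6.77 for Atf3. The peak ranked first by −log10 q had 11.2-fold for Jund and 5.51-fold for Batf3. The stricter sets hold fewer peaks by definition, and the causes of the other changes were not tested. No paired analysis was possible because replicates were merged before calling, and no replicate could be left out. Depth limits what was called, but it is unknown.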

Other observations

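Several members had their highest nearby peak beyond the 10 kb limit. A 17.7-fold peak lay 20998 bp past the 3′ end of Batf, nearer to Flvcr2, and ranked 244 of all peaks. Batf3, whose own peaks stayed at or below 5.54-fold, had a 14.4-fold peak 14397 bp outside its gene. For Atf3 the first summit beyond the limit lay 10453 bp away with 6.77-fold enrichment. These peaks were assigned to no gene by the rule used, and which gene they act on was not measured.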
